A study of Mus musculus with 6 samples.

Results

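The genes described here are 10 cytosolic heat shock chaperone genes and relatives in the mouse molar epithelium, 10 of the 55487 genes that the deposited table lists. They are *Hspa1a*, *Hspa1b*, *Hspa8*, *Hsp90aa1*, *Hsp90ab1*, *Hsph1*, *Dnajb1*, *Hspb1*, *Bag3* and *Hsf1*, taken by gene name, and the set was chosen by the levels of *Hspa1a* and *Hspa1b*, which separate the study's groups. The comparison between groups is therefore given for these genes as a description, and counts of them that met a p criterion are printed beside the share of all genes that did, with nothing read from them. RNA was sequenced from dental epithelium of first mandibular molars at PN2.5 (postnatal day 2.5), with 3 libraries of the *Wnt10a* fl/fl genotype (control) and 3 of the *K14-Cre;Wnt10a* fl/fl genotype (cKO). Both genotypes carry floxed *Wnt10a* alleles, and in the cKO the keratin 14 promoter drives Cre recombinase in epithelial cells, so that a cell of another type in the dissected tissue keeps its *Wnt10a*. Controls carry no Cre, so effects of Cre and of the loss of *Wnt10a* cannot be told apart. The deposited design text gives a pool of 4 molars for each library, and the paper's methods give another number.

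Heat shock proteins are molecular chaperones that bind unfolded or unstable proteins and help them to fold, to be held in solution or to be degraded. Cytosolic Hsp70 exists as a constitutive form, encoded by *Hspa8*, and as stress-inducible forms encoded by *Hspa1a* and *Hspa1b*, and it works with J-domain partners such as Dnajb1, with nucleotide exchange factors such as Hsph1 and Bag3, and with the Hsp90 proteins. The transcription factor Hsf1 is held inactive in unstressed cells and, after heat or other protein damage, binds heat shock elements, repeats of GAA and TTC in alternating orientation, in the promoters of the inducible genes.

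*Hspa1a* and *Hspa1b* lie next to each other on the reverse strand of chromosome 17. In the GENCODE annotation of GRCm38, *Hspa1b* (ENSMUSG00000090877) runs from 34956436 to 34959238 and *Hspa1a* (ENSMUSG00000091971) from 34969190 to 34972156, and each has 1 exon and no intron. The 250 bases upstream of each start were read from RefSeq promoters of build GRCm38.p6, which held 6 of the 10 genes. Those of the inducible pair are shown because these are the genes that separate the groups. That of *Hspb1* is shown because it held more exact matches than the pair and its level did not separate the groups. Capitals mark exact matches to the element of 2 units, GAANNTTC or TTCNNGAA, and each sequence ends at the base before the annotated start. Elements that depart from these letters were not searched for, so the matches do not count all heat shock elements.
Hspa1a (chr17:34972157-34972406, reverse strand): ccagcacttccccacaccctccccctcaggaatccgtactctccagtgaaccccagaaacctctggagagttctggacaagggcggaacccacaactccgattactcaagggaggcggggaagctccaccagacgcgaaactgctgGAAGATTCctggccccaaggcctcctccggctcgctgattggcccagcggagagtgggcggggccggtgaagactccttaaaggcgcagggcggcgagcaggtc
Hspa1b (chr17:34959239-34959488, reverse strand): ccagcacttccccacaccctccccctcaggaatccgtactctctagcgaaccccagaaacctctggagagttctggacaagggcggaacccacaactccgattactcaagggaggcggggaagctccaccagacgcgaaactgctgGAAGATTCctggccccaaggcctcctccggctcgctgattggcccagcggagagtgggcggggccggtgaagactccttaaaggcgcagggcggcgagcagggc
Hspb1 (chr5:135887669-135887918, forward strand): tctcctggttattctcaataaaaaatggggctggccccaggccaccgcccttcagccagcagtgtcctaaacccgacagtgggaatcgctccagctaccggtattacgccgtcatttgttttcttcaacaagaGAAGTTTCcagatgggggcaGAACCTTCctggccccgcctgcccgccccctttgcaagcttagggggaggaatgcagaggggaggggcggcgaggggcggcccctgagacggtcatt

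The promoters of *Hspa1a* and *Hspa1b* were identical at 247 of 250 positions (98.8%), and each held 1 element of 2 units, at bases -104 to -97 from the start. *Hspb1* held 2, at bases -117 to -110 and -97 to -90. *Hsph1* has 2 annotated starts, each with 1 element, which lies at bases -54 to -47 or -33 to -26 according to the start. The RefSeq promoters of *Dnajb1* and *Bag3* held no match, which says only that these letters are not in these windows. The motif is common: 12.8% of the 32851 RefSeq promoters held it within 250 bases, read on both strands, on which the motif reads alike. None of the 6 genes held the longer element of 3 units, GAANNTTCNNGAA or TTCNNGAANNTTC, which contains the shorter one and was in 0.466% of promoters. A match is a run of letters, and binding of Hsf1 was not measured.

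**Figure D1:**
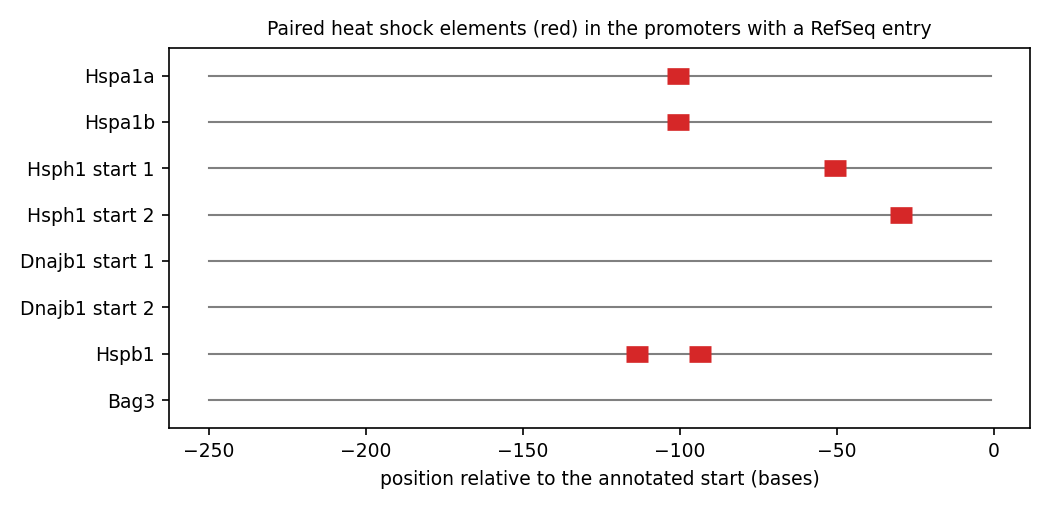
Positions of the heat shock element of 2 units (red) in the 250 bases upstream of each annotated start (grey lines), for the 6 genes with a RefSeq promoter; the horizontal axis is the position in bases from the start. *Hspa1a* and *Hspa1b* hold an exact match at the same place, *Hspb1* holds 2 matches, and *Dnajb1* and *Bag3* hold no match.

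The values are TPM, in which each gene's reads are scaled by its length and by the library, and levels of different genes can therefore be compared. Each library summed to between 983952 and 993946 TPM and had between 20185 and 23203 genes above 0. Sequencing depth cannot be read back from TPM and is unknown. *Wnt10a*, the deleted gene, spanned 51.2 to 57.9 TPM among controls and 21.8 to 32.2 TPM among cKO libraries. The epithelial markers *Krt14* and *Krt5* were at 1945 TPM or more in every library. Of the 7 epithelial markers, 6 had a difference below 0 and 0 met the criteria described further on. *Ambn*, an enamel matrix gene of ameloblasts, was at 31405, 32180 and 33061 TPM in controls and at 24646, 8562 and 26263 TPM in cKO libraries, without overlap (log2 fold change -0.86, standard error 0.42). The sum of the 7 was 98963 TPM in cKO replicate 2 and 192842 TPM or more in the other 5 libraries. The part of this library and of the enamel genes in the TPM of other genes was examined by leaving out cKO replicate 2, which gave -1.48 for *Hspa1a* and -1.75 for *Hspa1b*, and by rescaling without *Amelx* and *Ambn*, which gave -1.77 and -1.96. Markers of mesenchyme were also present, and their sum over 7 genes spanned 3268 to 6582 TPM among controls and 4258 to 4747 TPM among cKO libraries, with 0 of the 7 meeting the criteria. Nothing in the labels says that the pools shared no animals, and the errors given here measure the spread between libraries.

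The inducible pair was lower in every cKO library. *Hspa1b* was at 150.9, 65.8 and 77.5 TPM in control replicates 1, 2 and 3 and at 22.3, 20.1 and 31.7 TPM in cKO replicates 1, 2 and 3. *Hspa1a* was at 56.9, 22.1 and 37.7 TPM in the control and at 9.58, 7.79 and 15.7 TPM in the cKO. For both genes the lowest control library was above the highest cKO library, and control replicate 1 stood highest of the 6. The mean of *Hspa1b* fell from 98.1 ± 46.1 TPM (SD, n = 3) to 24.7 ± 6.15 TPM (SD, n = 3), 25.2% of the control. That of *Hspa1a* fell from 38.9 ± 17.4 TPM (SD, n = 3) to 11.0 ± 4.15 TPM (SD, n = 3), 28.4% of the control. On the scale of log2(TPM + 1), the difference between cKO and control was -1.88 (standard error 0.33) for *Hspa1b* and -1.68 (standard error 0.38) for *Hspa1a* in limma, where the median of all 13719 tested genes was -0.07. Ordered from the strongest decrease, they stood at places 46 and 60 of the 13719. In bulk tissue, fewer cells that express these genes and less of their RNA per cell cannot be told apart.

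**Figure D2:**
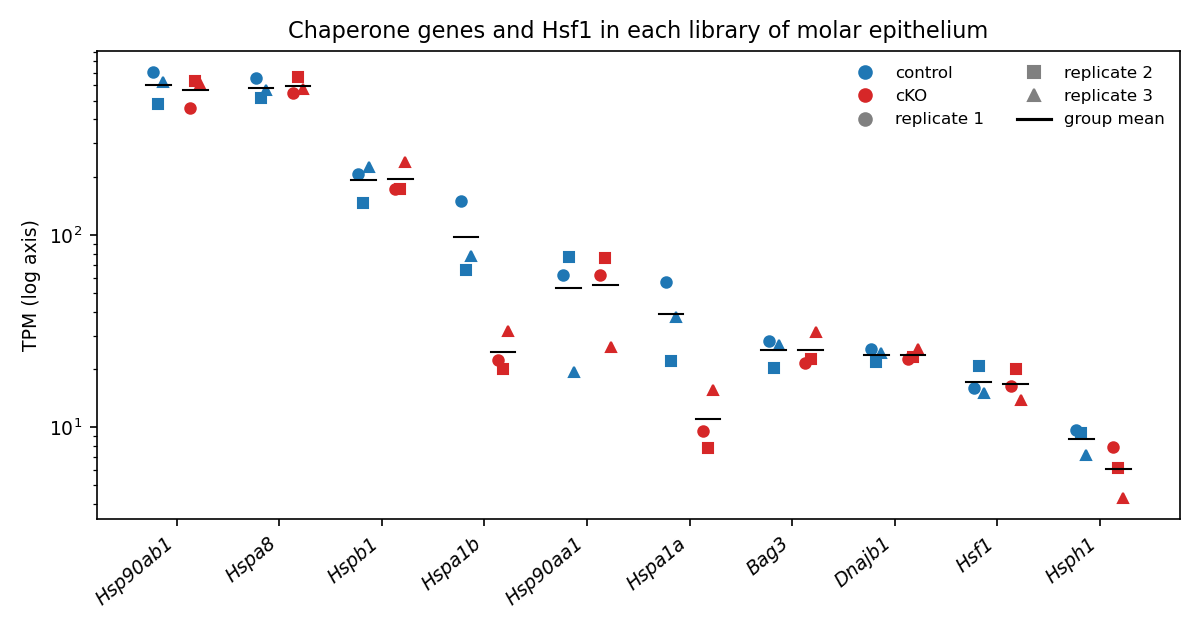
TPM of the 10 genes on a log axis, ordered by the control mean, with 1 point for each library (blue control, red cKO, shape for the replicate number) and a line at the group mean. The cKO libraries of *Hspa1b* (20.1 to 31.7 TPM) and *Hspa1a* (7.79 to 15.7 TPM) sit below all control libraries, and the groups of the other 8 genes overlap.

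The pair shares much of its sequence, so the split of reads between the copies is uncertain. Aligned over the coding parts of 1923 and 1926 bases, *Hspa1a* and *Hspa1b* were identical at 1915 positions, with 8 mismatches and 3 gapped positions. Of all windows of 100 bases, 47.1% of those in the *Hspa1a* transcript were also in that of *Hspa1b*, and 49.9% the other way. Windows of either gene found in a transcript of *Hspa8* came to 0.0%, and in that of the neighbour *Hspa1l* to 4.7% for *Hspa1a* and 3.3% for *Hspa1b*. *Hspa1b* was above *Hspa1a* in every library, by a ratio of 2.65, 2.99 and 2.06 in the control and of 2.33, 2.58 and 2.02 in the cKO, with overlap between the groups. The sum of both copies depends less on how reads were divided between them, although their transcripts differ in length (2967 and 2803 bases). How reads that match both copies were counted is not given in the sources used here. The sum was 207.8, 87.9 and 115.2 TPM in the control and 31.9, 27.9 and 47.4 TPM in the cKO. Its control mean was 3.83 times the cKO mean, and its difference was -1.85 (standard error 0.34) on the scale of log2(TPM + 1). *Gm20481*, annotated across *Hspa1a* on the opposite strand, was listed at 0 in every library.

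The constitutive form did not follow the inducible pair. *Hspa8*, which encodes the Hsp70 that cells make without stress, was at 652.2, 518.2 and 570.4 TPM in the control and at 549.5, 661.3 and 575.5 TPM in the cKO, so that the groups overlapped. Its difference was 0.04 (standard error 0.15) on the scale of log2(TPM + 1), with a 95% interval from -0.32 to 0.40. Of the summed level of *Hspa1a*, *Hspa1b* and *Hspa8*, the inducible pair made up 24.2%, 14.5% and 16.8% in control replicates 1, 2 and 3, against 5.48%, 4.05% and 7.61% in cKO replicates 1, 2 and 3. This share is a ratio within each library, and a common scaling of a library's TPM does not change it.

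**Figure D3:**
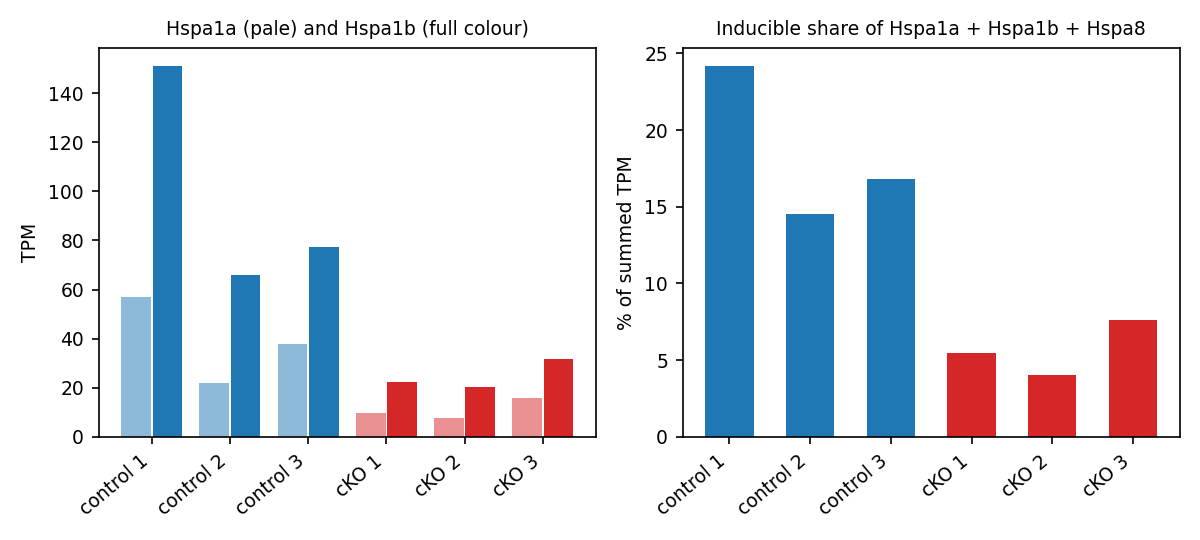
Left, TPM of *Hspa1a* (pale) and *Hspa1b* (full colour) in each library; right, their sum as a percentage of the summed TPM of *Hspa1a*, *Hspa1b* and *Hspa8* (blue control, red cKO). The share was 14.5% to 24.2% in the control and 4.05% to 7.61% in the cKO.

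*Hsph1*, a nucleotide exchange factor of the Hsp110 family, had the largest difference among the other 8 genes. It was at 9.66, 9.29 and 7.18 TPM in the control and at 7.85, 6.14 and 4.29 TPM in the cKO. cKO replicate 1 was above control replicate 3, so the groups overlapped. The difference was -0.47 (standard error 0.25) on the scale of log2(TPM + 1), with a 95% interval from -1.07 to 0.12. It met the criteria given further on, as lower in the cKO, when the replicate number entered the fit as a block or when cKO replicate 1 was left out. It did not when the block was combined with the removal of length and GC trends, where the difference was -0.32. Over all tested genes, those lower numbered 907 of 13719 with the block and 94 of 13725 without cKO replicate 1. The main fit had 339 of 13719. As one of the chosen genes *Hsph1* is given no weight from these calls. It was the lowest of the 10 genes in every library.

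Neither cytosolic Hsp90 gene separated the groups. *Hsp90ab1*, the constitutive cytosolic Hsp90, was at 704.2, 481.2 and 625.1 TPM in the control and at 459.8, 629.7 and 610.7 TPM in the cKO, with overlap between the groups. *Hsp90aa1*, the form that stress induces, was at 62.0, 76.8 and 19.4 TPM in the control and at 62.3, 76.2 and 26.3 TPM in the cKO. Libraries numbered 3 were the low ones in both groups, and those numbered 1 and 2 were close to each other across the groups. *Hsp90aa1* made up between 3.02% and 13.8% of the cytosolic Hsp90 level in the control and between 4.12% and 11.9% in the cKO. The differences between cKO and control were -0.09 (95% interval -0.56 to 0.39) for *Hsp90ab1* and 0.14 (95% interval -1.22 to 1.5) for *Hsp90aa1* on the scale of log2(TPM + 1). The wide interval of *Hsp90aa1* goes with its spread inside each group.

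*Dnajb1*, the J-domain partner that delivers clients to Hsp70, was the steadiest of the set. It was at 25.4, 21.95 and 24.3 TPM in the control and at 22.6, 23.3 and 25.5 TPM in the cKO, and its highest library was 1.16 times its lowest, against 7.5 times for *Hspa1b*. *Hspb1*, a small heat shock protein that holds unfolded clients, was at 208.5, 146.3 and 226.3 TPM in the control and at 173.4, 174.1 and 239.5 TPM in the cKO. *Bag3*, a co-chaperone that links Hsp70 and small heat shock proteins to autophagy, was at 28.1, 20.4 and 26.8 TPM in the control and at 21.6, 22.6 and 31.4 TPM in the cKO. For all 3 genes the groups overlapped, and the differences on the scale of log2(TPM + 1) were at most 0.02, with 95% intervals from -0.37 to 0.36 for *Dnajb1*, from -0.50 to 0.54 for *Hspb1* and from -0.51 to 0.50 for *Bag3*. The promoter of *Hspb1* held exact matches to the element of 2 units within 250 bases, and those of *Dnajb1* and *Bag3* held none. Elements with other letters were not searched for.

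*Hsf1*, which encodes the factor itself, was at 16.0, 20.8 and 15.1 TPM in the control and at 16.3, 19.98 and 13.9 TPM in the cKO. The groups overlapped, with a difference of -0.05 (95% interval -0.54 to 0.45) on the scale of log2(TPM + 1). The activity of Hsf1 is set on the protein, by its release from chaperones, its trimerization and its modification, and was not measured.

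**Figure D4:**
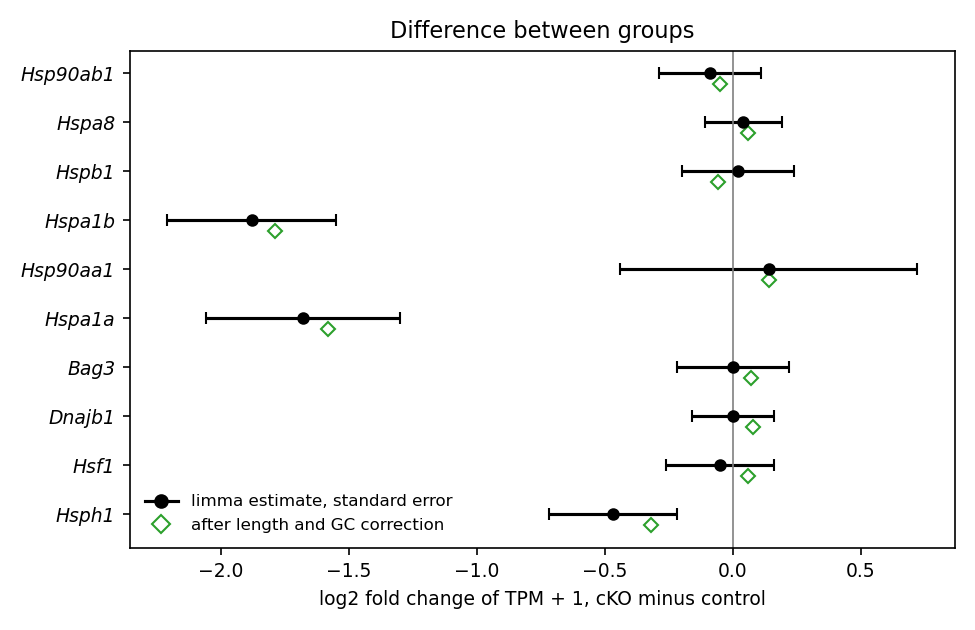
Difference between cKO and control on the scale of log2(TPM + 1) for the 10 genes (black points with standard errors from limma) and the difference once a trend with transcript length and GC content had been removed from each library (green diamonds). *Hspa1b* (-1.88) and *Hspa1a* (-1.68) stand apart from the other 8, which lie between -0.47 and 0.14.

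By level, the 10 genes fell into layers. *Hsp90ab1* and *Hspa8* took the first 2 places in every library, with overlapping control ranges, and *Hspb1* the third. In the control *Hspa1b* came next by its mean and overlapped *Hspb1*, since control replicate 1 of *Hspa1b* (150.9 TPM) was above control replicate 2 of *Hspb1* (146.3 TPM). The control ranges of *Hsp90aa1*, *Hspa1a*, *Bag3* and *Dnajb1* overlapped one another, and *Hsf1* overlapped *Bag3* but stood below *Dnajb1* without overlap. In the cKO *Hspa1a* moved from place 5 or 6 to place 8 or 9, and *Hspa1b* moved from place 4 or 5 to between place 4 and place 7.

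All 10 genes passed the filter of a mean of at least 1 TPM. The criteria take their thresholds from the study's methods, an unadjusted p under 0.05 and a mean over 20% away from the control mean. Here the p came from limma on log2(TPM + 1), so the calls can differ from those of the paper. The difference in means and the log2 fold change also had to have the same sign. By these criteria, 2 of the 10 were lower in the cKO and 0 were higher, and the 2 were *Hspa1a* and *Hspa1b*. Of all tested genes, 2.47% were lower and 1.55% higher by these criteria, 6.13% had every cKO library below every control library and 3.51% had the reverse. Since the pair chose the set, nothing is read from this count. By Benjamini-Hochberg adjusted p from limma over all genes, 0 of the 10 were below 0.05, against 2 by unadjusted p, and 0.0146% of all tested genes were. In a test of each gene alone, on the TPM without a log scale, 0 of the 10 met the criteria. This test differed from limma both in its scale and in sharing no variance between genes. Which of these lowered the count from 2 to 0 was not tested.

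The rest of the cytosolic chaperone system was read from 55 further genes, of which 50 were tested. In limma, 0 of the 50 met the criteria in either direction, 0 had an unadjusted p below 0.05, as in the test of each gene alone, and their median difference was 0.01, against -0.07 over all tested genes. Differences ranged from -0.41 for *Unc45a*, a myosin chaperone and Hsp90 partner, to 0.54 for *Ahsa2*, a relative of the Hsp90 activator Ahsa1. The most abundant gene of each group overlapped between the groups. *Hspa4*, an Hsp110 relative of *Hsph1*, was at 43.9 ± 11.9 TPM in controls and 44.6 ± 8.19 TPM in cKO libraries (SD, n = 3 each). *Dnajc7*, a J-domain co-chaperone, was at 104.8 ± 26.1 and 102.0 ± 21.2 TPM (SD, n = 3 each). *Cdc37*, which brings kinases to Hsp90, was at 114.2 ± 21.2 and 98.4 ± 10.5 TPM (SD, n = 3 each). *Bag1*, an Hsp70 exchange factor, was at 113.4 ± 15.9 and 120.0 ± 18.9 TPM (SD, n = 3 each). *Hspb8*, the small heat shock protein that works with Bag3, was at 43.6 ± 5.52 and 38.7 ± 9.32 TPM (SD, n = 3 each). *Hsbp1*, which binds heat shock factor 1, was at 118.1 ± 9.36 and 136.4 ± 14.2 TPM (SD, n = 3 each). The 8 subunits of the cytosolic chaperonin TRiC lay between -0.04 and 0.26, and *Cct2* was at 203.0 ± 21.6 and 206.3 ± 14.5 TPM (SD, n = 3 each).

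Without overlap between the groups were *Hspa12a*, higher in the cKO, and *Hspa12b* and *Bag6*, lower in the cKO, 3 of the 50, and none of the 3 met the criteria. Of all tested genes, 3.51% were higher in the cKO without overlap and 6.13% were lower, and nothing is read from the 3. *Hspa12a*, a distant Hsp70 relative, was at 0.46, 1.28 and 0.50 TPM in the control and at 1.30, 1.45 and 1.31 TPM in the cKO. Its control mean was 0.75 TPM, so it passed the filter of a mean of at least 1 TPM only through the cKO. *Bag6*, which guards newly made membrane proteins, was at 66.2, 65.7 and 76.9 TPM in the control and at 41.3, 55.4 and 63.2 TPM in the cKO. Without cKO replicate 3, *Bag6* and *Unc45a* met the criteria as lower, as did 597 of all 13861 genes tested in that fit. Without control replicate 3, *Dnajc5* met the criteria as lower, as did 930 of all 13823. Of the 9 chaperones of the endoplasmic reticulum and the mitochondria, 0 met the criteria in limma and 0 had an unadjusted p below 0.05, against 1 in the test of each gene alone, and their median difference was -0.02. *Hsp90b1*, the Hsp90 of the endoplasmic reticulum, was at 298.5 ± 131.9 TPM in controls and 303.0 ± 124.0 TPM in cKO libraries (SD, n = 3 each). *Hspe1*, the mitochondrial co-chaperonin, was at 163.5, 162.0 and 169.8 TPM in controls and at 202.8, 209.3 and 176.2 TPM in cKO libraries, without overlap (log2 fold change 0.24, standard error 0.14). Without cKO replicate 3, 1 of the 9, *Hyou1*, met them as lower.

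**Figure D5:**
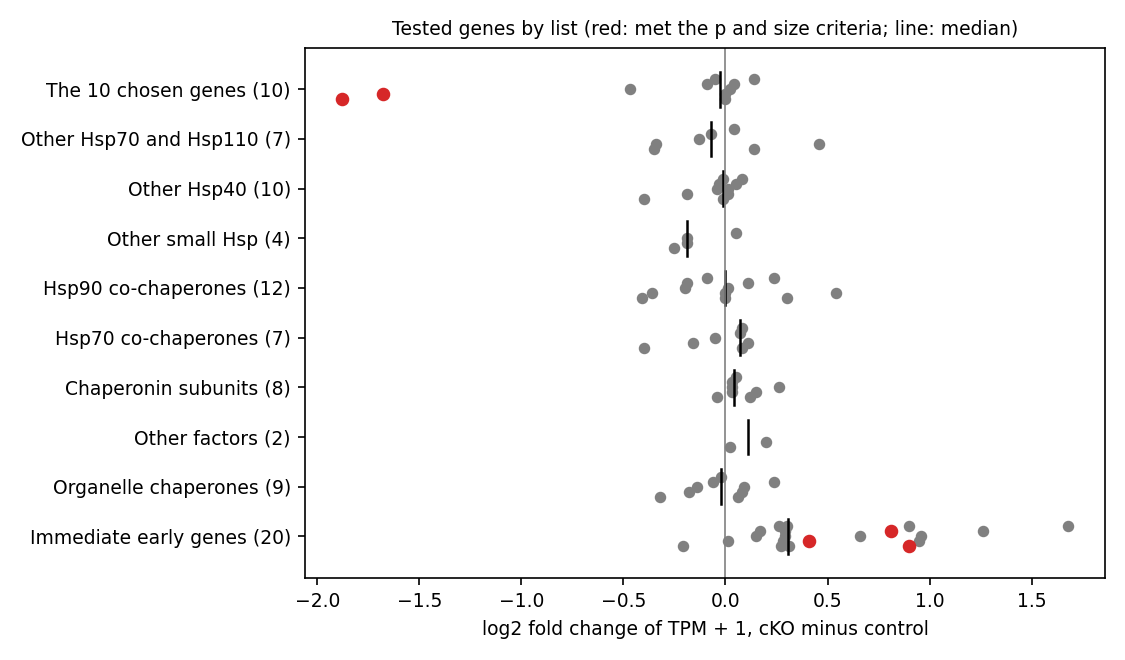
Differences between cKO and control on the scale of log2(TPM + 1) for the tested genes of each list (number tested in brackets), with a line at the list's median and red points for genes that met the p and size criteria. Among the chaperone lists the red points are *Hspa1a* and *Hspa1b*; the immediate early genes have a median of 0.30 and 3 red points.

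Immediate early genes, which growth factors and tissue handling switch on within minutes, leaned towards higher levels in the cKO. Of 21 listed, 20 were tested, 19 had a positive difference, and 3 met the criteria, all higher in the cKO, with a median difference of 0.30. Of all tested genes, 1.55% met the criteria as higher in the cKO, and the median difference was -0.07. By adjusted p from limma 0 of the 20 were below 0.05, against 3 by unadjusted p and 1 in the test of each gene alone. *Jund*, an AP-1 subunit, was at 146.4, 130.2 and 129.8 TPM in the control and at 170.1, 183.6 and 185.4 TPM in the cKO (log2 fold change 0.41, adjusted p = 1.00 from limma). *Junb* and *Ier2* were the other two, with log2 fold changes of 0.90 and 0.81 (adjusted p = 1.00 from limma for each). Summed over the 21 genes, the level was 553.5, 1007 and 380.7 TPM in the control and 940.0, 959.7 and 835.5 TPM in the cKO. Control replicate 2 had the highest sum of the 6 libraries, and it also had the lowest *Hspa1a* and *Hspa1b* of the controls. The lowest sum was in control replicate 3, whereas the highest *Hspa1a* and *Hspa1b* were in control replicate 1. *Fos* was at 42.1, 247.8 and 12.7 TPM in the control and at 187.2, 182.4 and 140.3 TPM in the cKO. The count of 3 was 10 without control replicate 2, 1 without control replicate 1 and 1 without control replicate 3. It was 1 without cKO replicate 1 and 0 without cKO replicate 2. Over all tested genes, the higher ones numbered 164, 106, 222, 101 and 95 in these fits, in the same order, against 213 in the main fit. Whether tissue handling had a part in the levels of the inducible pair was not tested.

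Other values also moved with the groups. Genes annotated as rRNA summed to 1850, 3794 and 2370 TPM in the control and to 17025, 12772 and 8920 TPM in the cKO. When the TPM were rescaled without them, the differences of *Hspa1a* and *Hspa1b* were -1.66 and -1.86. The sum of 5 endothelial markers spanned 60.2 to 95.5 TPM among controls and 47.7 to 67.3 TPM among cKO libraries, with a median difference of -0.54, and 2 of the 5, *Cdh5* and *Tek*, met the criteria as lower. The sum of 5 erythroid markers spanned 1325 to 1978 TPM among controls and 1160.5 to 1281.5 TPM among cKO libraries, with a median difference of -0.43, and 1 of the 5, *Hbb-bs*, met them as lower. Of all tested genes, 2.47% met the criteria as lower, and the median difference was -0.07. Sums of immune markers (47.4 to 63.2 TPM over the 6 libraries) and glial markers (7.20 to 11.0 TPM) came with 0 genes that met the criteria. Muscle markers summed to 7.46 TPM or less in every library, with *Myh3* at 0.02 TPM or less. The part of other cell types in the level of the inducible pair was not tested.

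The genes around the pair on chromosome 17 did not share its difference. Within 100 kb on either side, 28 genes are listed and 12 besides the pair were tested. Their differences ranged from -0.28 for *Vars* to 0.45 for *Sapcd1*. Of the 12, 0 met the criteria and 0 had an unadjusted p below 0.05 in limma. Among all tested genes 2.47% met the criteria as lower and 1.55% as higher, and nothing is read from the 0. *Hspa1l*, the testis-type Hsp70 gene next to *Hspa1a*, was at 1.05, 1.55 and 1.00 TPM in the control and at 0.92, 1.74 and 0.72 TPM in the cKO. *Lsm2*, a subunit of an RNA-binding ring, was higher in all cKO libraries, as were 3.51% of all tested genes. It was at 34.1, 25.5 and 31.3 TPM in controls and at 36.5, 41.4 and 35.04 TPM in cKO libraries. The window was chosen after the values of the pair were known.

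Over the 6 libraries, the tested genes whose log2(TPM + 1) was most like the mean of *Hspa1a* and *Hspa1b* were *Tmem88*, *Fblim1*, *Slc43a2*, *Ntrk2* and *Il10rb*, with Pearson r of 0.993, 0.990, 0.988, 0.987 and 0.983. The libraries are of 2 groups that the pair separates, and r is given as a description of 6 values. *Tmem88* was at 3.29, 1 and 2.04 TPM in the control and at 0, 0.04 and 0.51 TPM in the cKO. It was near the floor in the cKO and passed the filter of a mean of at least 1 TPM only through the control. *Fblim1*, which encodes an adaptor of filamin at cell contacts, was at 48.3, 38.8 and 40.4 TPM in the control and at 32.6, 31.5 and 35.1 TPM in the cKO. *Ntrk2*, the receptor of brain-derived neurotrophic factor, was at 28.6, 24.4 and 25.6 TPM in the control and at 18.8, 19.7 and 21.7 TPM in the cKO. Of the other 8 chaperone genes, *Hsph1* had the highest r, 0.54, and *Hsp90aa1* and *Hsf1* the lowest, -0.23 each.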

How the data were processed

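RNA of dental epithelium was sequenced after library preparation with an Illumina TruSeq RNA kit, and the paper's methods name mRNA extraction. Per the paper's methods, SeqPrep and Sickle were used by the authors for trimming, and HISAT2 for alignment. The paper's methods name RSEM for gene abundance, whereas the submitters' processing notes name StringTie. The genome build and annotation are not given in the sources used here. The deposited values are TPM, as the sum of each library shows, although the methods name FPKM.

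Of the listed gene identifiers, 99.4% were in GENCODE release M21 (GRCm38), which was used for positions, lengths and GC content. Differences were computed with limma 3.58.1 in R 4.3.3 (lmFit, eBayes with a mean-variance trend) on log2(TPM + 1) for 13719 genes whose mean over the 6 libraries reached 1 TPM, without a block. The scale understates changes of low genes. P-values were adjusted by the Benjamini-Hochberg method over the whole table of tested genes. The script was tested on simulated data. The members, the lists and named genes (all members, listed genes that met the criteria, the most abundant gene of each list, and the 5 genes most like the inducible pair) were chosen with earlier results of these data known. Further genes of the lists that did not overlap between the groups or bounded a range, and *Fos*, were named after their values were seen. The alternatives were another pseudocount, no filter, 3 other scalings (quantile, median-ratio, without *Amelx* and *Ambn*), a fit without the trend, Student's test, a correction for length and GC content of transcripts, the replicate block and leaving out each library. Rescaling without rRNA genes and summing the inducible pair were added after the data were examined.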

Additional observations from a re-analysis of the deposited data

How the results depend on the processing

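Over the alternatives the log2 fold change ranged from -2.03 to -1.37 for *Hspa1a* and from -2.11 to -1.52 for *Hspa1b*, and both ends of each range came from leaving out 1 control library. The set was chosen by these genes, so their direction and calls are no sign of stability. The count of 2 of the 10 genes was 0 with Student's test on the TPM and 2 with the block and the length and GC correction. It was 3 with the replicate block or without cKO replicate 1, *Hsph1* being the added gene. Over all tested genes, those lower numbered 281 of 13719 with Student's test and 477 of 13707 with the block and the correction. They numbered 907 of 13719 with the block and 94 of 13725 without cKO replicate 1. Across genes, deviations from the group mean correlated between control and cKO libraries of one number at -0.08, 0.29 and 0.40, above 0 for 2 of the 3 numbers. The sources speak of pairs of replicates without saying what a pair shares, so whether the numbers pair the libraries is not settled, and the main values are without the block. Among the other cytosolic chaperones the count of 0 was 1 without the filter and 3 after rescaling without *Amelx* and *Ambn*. It was 2 with the replicate block, 2 with the length and GC correction and 3 with both. Over all tested genes, the lower ones numbered 339 of 13719 in the main fit and 535 of 28254 without the filter. They numbered 738 of 14202 after the rescaling and 907 of 13719 with the block. The higher ones were 213 of 13719 in the main fit, 334 of 13707 with the correction and 614 of 13707 with both. The chaperone count ranged from 0 to 2 when 1 library was left out, and the lower genes over all from 94 to 930. The chaperone count was of lower genes in the fits without the correction and of higher genes in those with it. Over all tested genes, lower ones also outnumbered higher ones in those fits without the correction. With it the higher ones outnumbered the lower, at 334 against 277, and at 614 against 477 with the block too. For organelle chaperones the count ranged from 0 to 1 when 1 library was left out. The 3 immediate early genes were 6 with quantile normalization, 5 with median-ratio scaling and 1 with Student's test. They were 7 with the block, 7 with the block and the correction, and 0 to 10 when 1 library was left out. Over all tested genes, 213 were higher in the main fit, 324 with quantile normalization, 316 with median-ratio scaling and 178 with Student's test. Those higher were 408 with the block, 614 with the block and the correction, and 95 to 335 when 1 library was left out. The cause of these changes in counts was not tested. The planned count tests could not be run on TPM, which keep no depth.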

Other observations

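Libraries numbered 3 had the lowest level in both groups for 3 of the 10 chosen genes (30%), *Hsp90aa1*, *Hsph1* and *Hsf1*, for 26 of the 50 other cytosolic chaperone genes (52.0%), for 4 of the 9 organelle chaperones (44.4%) and for 5108 of the 13719 tested genes (37.2%). Among the cytosolic genes were *Dnaja1*, an Hsp40 partner of Hsp70, at 90.8, 109.9 and 59.1 TPM in the control and 101.0, 120.6 and 57.1 TPM in the cKO, and *Ahsa2*, at 13.8, 34.3 and 9.50 TPM in the control and 34.1, 37.8 and 11.5 TPM in the cKO. *Hspa1a* and *Hspa1b* were not: their lowest libraries were those numbered 2 in both groups. This pattern was noticed in the data and was not tested.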
